A study of Vitis vinifera with 8 samples.

Results

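The stage by temperature interaction asks, for every gene, whether 1 hour of heat moved its transcript by the same amount in grape berries sampled before and after véraison, the onset of ripening. It was computed as the difference between 38 °C and 16 °C after véraison minus the same difference before véraison, on the scale of log2(RPKM + 1), where RPKM is reads per kilobase of gene scaled to the reads of the library. All 8 of the 8 libraries of the series entered it, and 16777 of 25771 listed genes were abundant enough to be tested.

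Messenger RNA of deseeded berries of the L1 microvine, a dwarf grapevine (Vitis vinifera) obtained from Pinot Meunier, was sequenced from single ends on the Illumina platform. The 4 groups were berries of 5 to 6 weeks after anthesis at 16 °C and at 38 °C (pre-véraison), and berries of 12 to 14 weeks at 16 °C and at 38 °C (post-véraison), each with 2 libraries described as biological replicates. All plants grew in pots in a controlled room at 16 °C. The 16 °C berries were picked at 9 AM and the 38 °C berries at 10 AM, 1 hour after the room was reset, so the hour of the morning and the temperature cannot be told apart within a stage. The temperature of the berries themselves is not given.

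Heat unfolds proteins, and plant cells answer within minutes: heat stress transcription factors of the Hsf family switch on genes for chaperones, which hold, refold or disaggregate other proteins. At véraison the berry stops making tannins and chlorophyll, softens, imports sugar and, in coloured cultivars, begins to make anthocyanins. A berry after véraison therefore starts from another set of transcripts, and an interaction compares changes from different starting levels.

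The libraries held 6047199 to 11243341 reads as worked out from the steps of the RPKM values, and 3 reads in a gene of median length made 0.173 to 0.322 RPKM. Replicates had a Pearson r of 0.988 to 0.992 across the tested genes. Reads of the 10 top genes made up 7.80 to 11.7% of a library before véraison and 23.9 to 26.6% after it. The stage labels were checked at 16 °C with genes known for their stage. These markers were chosen with earlier results of these data known, so the check is not independent. All 6 tested markers of ripening berries were higher after véraison, such as the ripening-induced GRIP22 (0.672 and 0.577 RPKM before, 470 and 508 RPKM after). All 6 tested markers of green berries were higher before, such as the photosystem protein gene PSBP1 (622 and 594 RPKM before, 27.4 and 25.7 RPKM after). In RNA from whole fruit tissue, fewer responding cells and less transcript per cell cannot be told apart.

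The interaction passed a limma adjusted p of 0.05 in 1254 genes, which is 7.47% of the genes tested. It was positive, meaning a change that was higher after véraison than before, in 662 genes (3.95%) and negative in 592 (3.53%). At an unadjusted p under 0.05 there were 3579. In all 1254 called genes the 4 possible differences between a 38 °C and a 16 °C library of one stage lay entirely above or below the 4 of the other stage, as they did in 37.2% of all tested genes. The negative interactions were larger in size, with a median of -1.43 and 79 genes at 3 log2 units or more, against a median of 1.02 and 4 such genes among the positive ones.

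**Figure D1:**
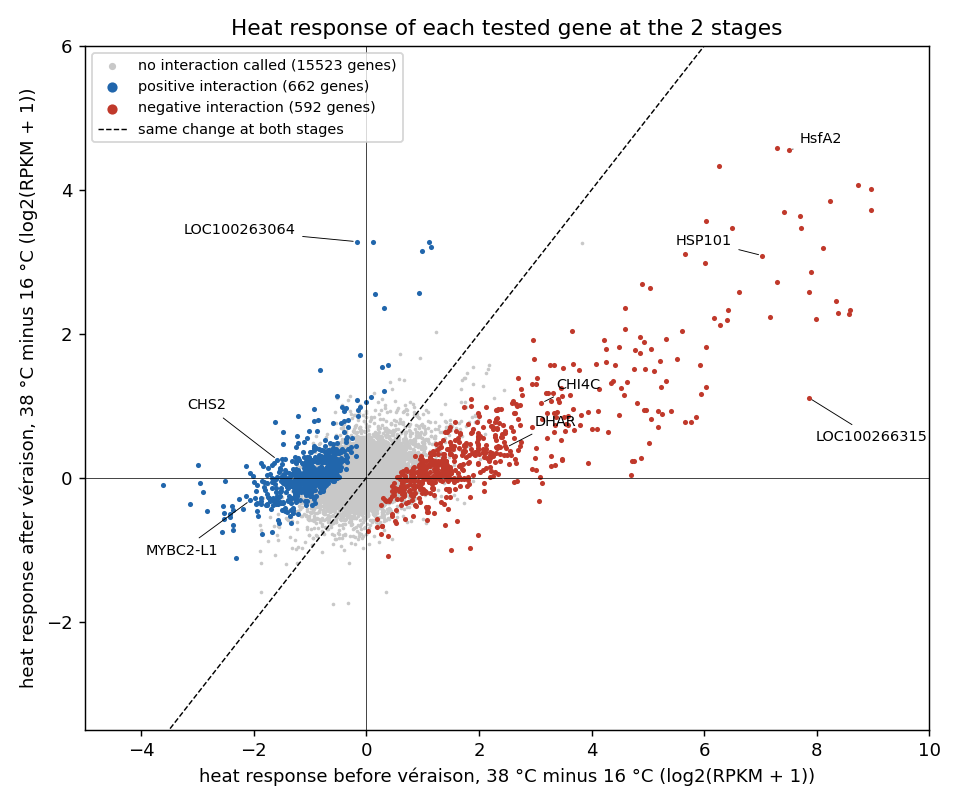
Each point is 1 of the 16777 tested genes, placed by its change from 16 °C to 38 °C before véraison (horizontal) and after véraison (vertical), both in log2(RPKM + 1), and coloured by whether its interaction was called. The 592 negative genes spread to the right with changes of several units before véraison and less after it, the 662 positive genes lie mostly to the left of 0, and a few positive genes rise above the dashed line of equal change.

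Most of the called interactions were changes seen before véraison that were smaller or missing after it. Of the 592 negative ones, 443 had a rise before véraison and a smaller rise, by sign, after it, with median changes of 2.08 and 0.40 log2 units. A further 136 had a rise before and no rise after, and 13 had a fall after that was larger than their change before. Of the 662 positive ones, 293 had a fall before and a smaller fall after (medians -1.23 and -0.13) and 329 a fall before and none after (medians -0.81 and 0.15). The remaining 40 positive genes had, by estimate, a larger rise after véraison than any change before. By sign and size alone, these shapes were also common among all 16777 tested genes, called or not. There, 2706 had a rise before and a smaller rise after, and 1368 a rise before and none after. A fall before and a smaller fall after was seen in 3991, and a fall before and none after in 3524.

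The heat response within each stage was called for 1335 genes higher (7.96%) and 2082 lower (12.4%) before véraison, against 183 higher (1.09%) and 27 lower (0.161%) after it. Of the 3417 genes with a called response before véraison, 1196 (35.0%) also had a called interaction, so for the other genes a difference between the stages was not shown. Another 18 called interactions came with a heat response called after véraison only, and 40 with none called at either stage.

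In 116 genes the rise was called at both stages and was smaller after véraison with a called interaction. At the median they rose by 4.18 log2 units before véraison and by 1.38 after it. The rise after véraison was 37.5% of the rise before at the median, on this log2 scale, and 22.2 to 57.2% from the 5th to the 95th percentile. The genes were chosen for a smaller rise after véraison in these same values, so a reduced share follows from the choice. It is a description of the 116 genes and not the share for all genes with a rise called at both stages. The summed level of the 116 genes was 28648 and 33802 RPKM in the pre-véraison libraries at 38 °C and 4816 and 4381 RPKM in the post-véraison ones, from 1862, 1688, 1774 and 1769 RPKM at 16 °C. Within the heated pre-véraison group, replicate 2 was above replicate 1 in 106 of the 116 genes, and within the heated post-véraison group it was below in 81.

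HSP101 and HsfA2 had the most negative interactions among named genes. HSP101, a chaperone that pulls proteins out of aggregates, had 7.12 and 6.34 RPKM at 16 °C and 944 and 1075 RPKM at 38 °C before véraison. After véraison it had 4.74 and 6.45 RPKM at 16 °C and 65.2 and 45.7 RPKM at 38 °C. The 16 °C libraries of the stages overlapped, while both heated pre-véraison libraries were far above both heated post-véraison ones. The rise was called at both stages, and the interaction was -3.94 ± 0.25 (SE) log2 units with an adjusted p of 1.2e-05, so that the rise after véraison was 43.9% of that before on the log2 scale.

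HsfA2, a heat stress transcription factor that is itself induced by heat in other plants such as Arabidopsis, went from 3.14 and 1.69 to 562 and 658 RPKM before véraison. It went from 1.12 and 2.75 to 73.8 and 57.1 RPKM after véraison. Its interaction was -2.96 ± 0.38 (SE) with an adjusted p of 0.001, and it kept more of its rise than HSP101, 60.6% on the log2 scale. Whether these shares differ between HsfA2 and HSP101 was not tested.

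BiP, the chaperone of the endoplasmic reticulum, moved on a much smaller scale. It had 2.66 and 3.26 RPKM at 16 °C and 9.75 and 9.80 RPKM at 38 °C before véraison, and between 3.89 and 4.28 RPKM in all 4 post-véraison libraries. Only the heated pre-véraison libraries stood above the rest. The interaction was -1.42 ± 0.22 (SE), adjusted p 0.0032. These are all 3 genes of the heat shock list, and their median interaction of -2.96 stands beside a median of 0.12 over all tested genes.

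DHAR, a dehydroascorbate reductase that regenerates ascorbate, rose before véraison from 29.3 and 24.8 to 148 and 162 RPKM. After véraison it was at 21.6 and 28.4 RPKM at 16 °C and 36.5 and 30.7 RPKM at 38 °C, a change of 0.42 log2 units that was not called (adjusted p 0.33). Its interaction was -2.06 ± 0.21 (SE), adjusted p 2.2e-04. The other 8 tested redox genes had no called interaction, where 7.47% of all tested genes had one, and the list of 9 had a median of -0.03.

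The gene listed as WKRY, one of 3 tested WRKY transcription factor genes, rose before véraison from 1.58 and 2.34 to 7.67 and 8.67 RPKM and lay between 2.55 and 3.62 RPKM in the post-véraison libraries. Its interaction was -1.64 ± 0.27 (SE), adjusted p 0.0053. WRKY2 and WRKY20 were not called, at -0.22 (95% interval -0.69 to 0.24) and 0.54 (0.15 to 0.92).

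Among the pathogenesis-related and ripening proteins, 2 of 25 tested genes were called, both negative, and the median was 0.15. This share is close to the 7.47% called among all tested genes. The class IV chitinase gene CHI4C shows how the result depends on the scale. It had 0.786 and 0.135 RPKM at 16 °C and 12.2 and 10.5 RPKM at 38 °C before véraison, and 32.0 and 15.3 RPKM at 16 °C and 41.5 and 52.3 RPKM at 38 °C after it.

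On the log2 scale the change of CHI4C was smaller after véraison, with an interaction of -2.07 ± 0.43 (SE) and an adjusted p of 0.017. In RPKM it was larger, 23.3 against 10.9. Both heated post-véraison libraries were above every other library. The call was lost in 8 of 20 alternative settings, among them a pseudocount of 5 RPKM, where the interaction was -0.67.

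MRIP1, a ripening-induced protein gene, rose before véraison from 196 and 221 to 382 and 363 RPKM and had 14049 to 15867 RPKM in the 4 post-véraison libraries, where the change at 38 °C was not called (-0.16 log2 units). Its interaction was -1.002 ± 0.21 (SE), adjusted p 0.016, and the call was lost in 7 of 20 settings. The called genes rarely changed sign with the scale: 658 of the 662 positive and 586 of the 592 negative interactions had the same sign in RPKM. All 10 exceptions had the higher 16 °C level after véraison. Where the log2 change is larger before véraison, the sign can differ in RPKM only with such a level, so this is largely arithmetic.

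The remaining named negative genes had interactions between -1.02 and -0.65 log2 units. They were BG1 (-1.02), the calcium-regulated kinase genes CIPK01 (-0.97) and CIPK20 (-0.65), CYN (-0.93) and the plasma membrane aquaporin PIP2;2 (-0.65). In each of them the rise before véraison was called and the change after it was not. The call was lost in 9 of 20 settings for BG1, 11 for CIPK20 and 3 for CYN. CIPK01, the 1 of these 5 that was called in every setting tried, went from 15.4 and 13.8 to 27.3 and 29.9 RPKM before véraison and stayed between 23.0 and 26.3 RPKM after it.

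**Figure D2:**
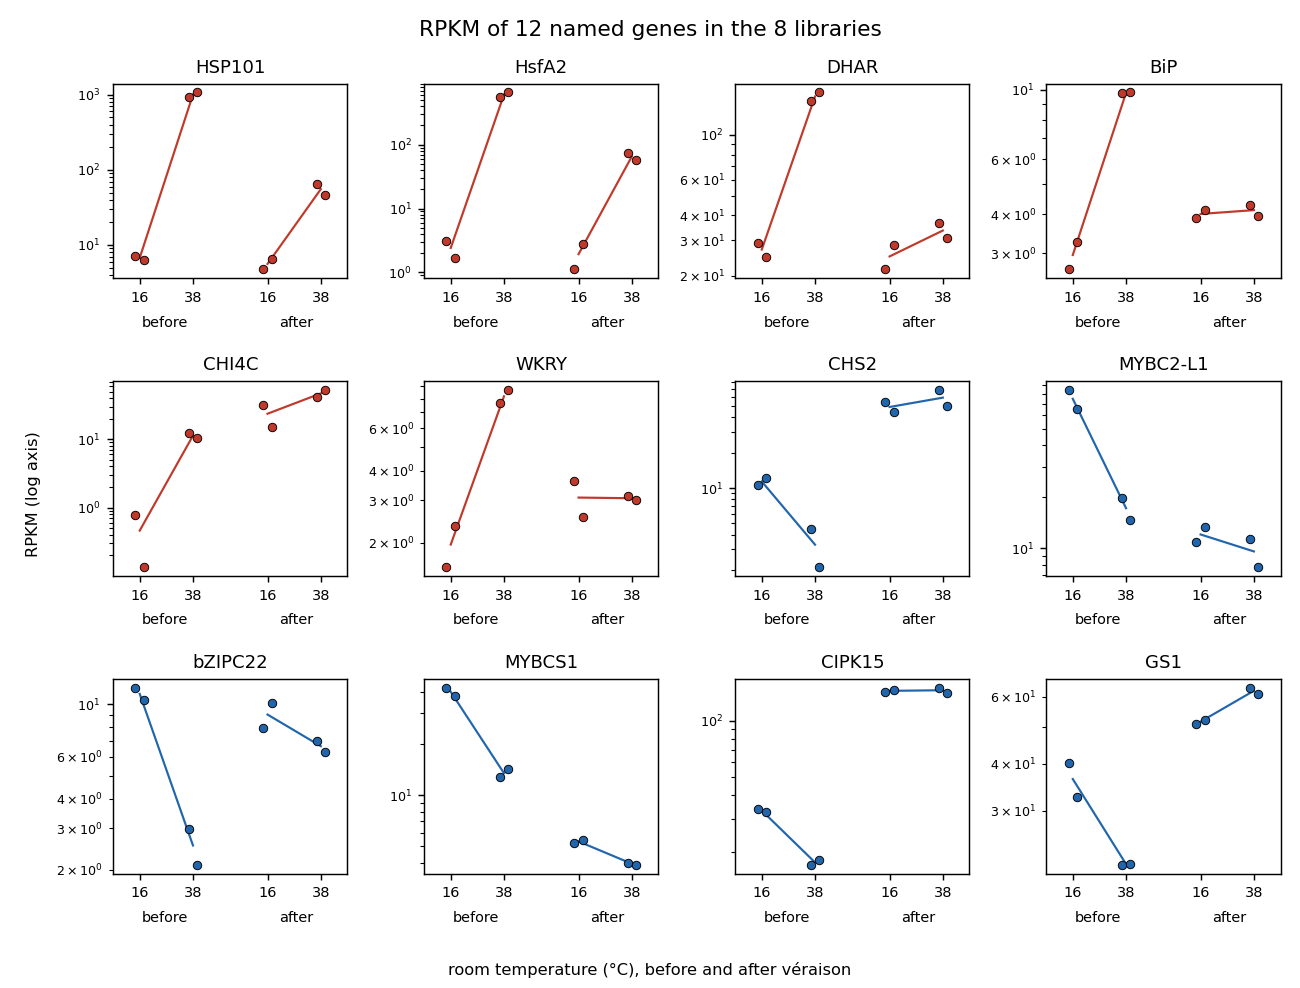
The RPKM of 12 named genes is plotted for each of the 8 libraries on log axes, each panel with its own range, with points for libraries and lines joining the group means from 16 °C to 38 °C at each stage. In the 6 panels with a negative interaction the line before véraison climbs more steeply than the one after it, and in the 6 with a positive interaction it falls before véraison and is flatter or rising after it.

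Genes of the flavonoid pathway with a called interaction were all positive. Of 14 tested enzyme genes, 3 had a positive interaction and none a negative one, with a median of 0.30. Of 10 tested regulators, 3 were positive and none negative, with a median of 0.38. Over all tested genes 3.95% were positive and the median was 0.12. All 6 fell with heat before véraison, and none had a called change after it.

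CHS2, a chalcone synthase gene and so an entry point of flavonoid synthesis, had 10.7 and 12.1 RPKM at 16 °C and 4.46 and 2.12 RPKM at 38 °C before véraison. After véraison it had 54.1 and 44.1 RPKM at 16 °C and 68.3 and 49.7 RPKM at 38 °C. The pre-véraison groups did not overlap, and the post-véraison groups did. Its interaction of 1.83 ± 0.34 (SE) was the most positive among named genes (adjusted p 0.0095).

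CHS1, its neighbour in the reference annotation, went from 10.4 and 9.98 to 4.78 and 3.88 RPKM before véraison and from 17.0 and 12.0 to 14.1 and 12.5 RPKM after it. Its interaction was 0.98 ± 0.25 (SE), adjusted p 0.04, and the call was lost in 13 of 20 settings. CHS1 and CHS2 are close copies and the handling of reads that match both is not known, so the split of reads between them is uncertain. FLS1, the flavonol synthase gene, had 3.86 and 1.88 RPKM at 16 °C and 0.399 and 0.618 RPKM at 38 °C before véraison. It had only 3 or 4 reads in each post-véraison library, so a fall there could hardly have been seen, and its call (1.35 ± 0.34 SE) was lost in 14 of 19 settings.

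Among the regulators, MYBC2-L1, which encodes a repressor of the MYB family, had 84.1 and 65.6 RPKM at 16 °C and 19.6 and 14.7 RPKM at 38 °C before véraison. After véraison it had 10.8 and 13.3 RPKM at 16 °C and 11.4 and 7.77 RPKM at 38 °C, so the 4 libraries overlapped. The interaction was 1.75 ± 0.28 (SE), adjusted p 0.0044. The bZIP factor gene bZIPC22 fell from 11.7 and 10.4 to 2.97 and 2.10 RPKM before véraison, and it was at 7.95 and 10.1 RPKM and then 6.99 and 6.30 RPKM after it (interaction 1.39 ± 0.25, adjusted p 0.0078).

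MYBCS1 fell from 42.3 and 37.9 to 12.7 and 14.1 RPKM before véraison and was at 5.24 and 5.46 RPKM and then 4.01 and 3.91 RPKM after it. Its interaction was 1.16 ± 0.18 (SE), adjusted p 0.0035. In bZIPC22 and MYBCS1 the post-véraison libraries at 38 °C were also below those at 16 °C, without a called change (adjusted p 0.53 and 0.35). Of 4 further MYB genes tested, MYB30 was called at 1.22 ± 0.24 (SE), which 2 of 20 settings did not, and the median was 0.32. Over all tested genes 7.47% were called.

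The phenylpropanoid steps that feed the pathway and the stilbene branch gave no call. None of 6 tested phenylpropanoid and stilbene genes passed by limma, where 7.47% of all tested genes did. An unadjusted p under 0.05 was seen in 2, both positive, against 3579 of all 16777 tested genes, and the median was -0.12. CCOAMT, an O-methyltransferase gene, had 1.01 (95% interval 0.14 to 1.87).

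Of 25 tested genes for calcium sensors (CBL) and the kinases they bind (CIPK), 4 were called positive and 2 negative, where 3.95% and 3.53% of all tested genes were, and the median was 0.22. The positive ones were CBL01 (0.89), CIPK14 (0.76), CIPK15 (0.90) and CIPK19 (1.16), and of these CIPK14 lost its call in 5 of 20 settings, CIPK19 in 3 and CBL01 in 2. CIPK15 went from 33.9 and 32.4 to 17.0 and 18.0 RPKM before véraison and stayed between 141 and 150 RPKM in all post-véraison libraries, with an interaction of 0.90 ± 0.13 (SE) and an adjusted p of 0.0022. CIPK15 and CIPK01 thus changed in opposite directions before véraison, and neither had a called change after it.

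Of 10 tested aquaporins, which are water channels, PIP1;1 was positive and PIP2;2 negative, where 3.95% and 3.53% of all tested genes were, and the median was -0.39. PIP2;2 had 475 and 525 RPKM at 16 °C and 739 and 642 RPKM at 38 °C before véraison, and 146 and 145 RPKM and then 127 and 130 RPKM after it. Its call was lost in 11 of 20 settings, quantile normalization among them. PIP1;1 had 25.9 and 26.7 RPKM at 16 °C and 11.4 and 13.0 RPKM at 38 °C before véraison. It had 1, 2, 2 and 6 reads in the post-véraison libraries, so its interaction of 1.29 ± 0.24 (SE) compares a fall with a level close to none. The call was lost in 4 of 20 settings. They were both fits of limma voom to the recovered reads (adjusted p 0.13 and 0.19), a pseudocount of 0.1 (limma adjusted p 0.059) and the threshold of 0.01. TIP1;1, a channel of the vacuolar membrane, was not called at -0.73 (95% interval -1.25 to -0.21), nor was PIP2 at 0.61 (0.22 to 1.00).

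Other named positive genes were GS1 (0.98), RD22-C (1.10), the carotenoid cleavage dioxygenase gene CCD4b (0.86), UVR1 (0.86), VVYS1 (0.76) and the alcohol dehydrogenase gene ADH3 (0.49). GS1 fell from 40.2 and 32.6 to 21.6 and 21.7 RPKM before véraison and was at 51.0 and 52.3 RPKM and then 63.4 and 61.2 RPKM after it, where its 0.27 log2 units were not called (adjusted p 0.47). RD22-C had under 1 RPKM in all 4 post-véraison libraries, from 10 to 16 reads. ADH3 was not called within either stage, at -0.19 and 0.30 log2 units, and its interaction lost the call in 14 of 20 settings. The call was also lost in 14 of 20 settings for UVR1, 11 for RD22-C, which included both voom fits, 5 for VVYS1 and 3 for CCD4b. ADH3 was the 1 named gene among the 53 whose change after véraison was the larger by size.

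**Figure D3:**
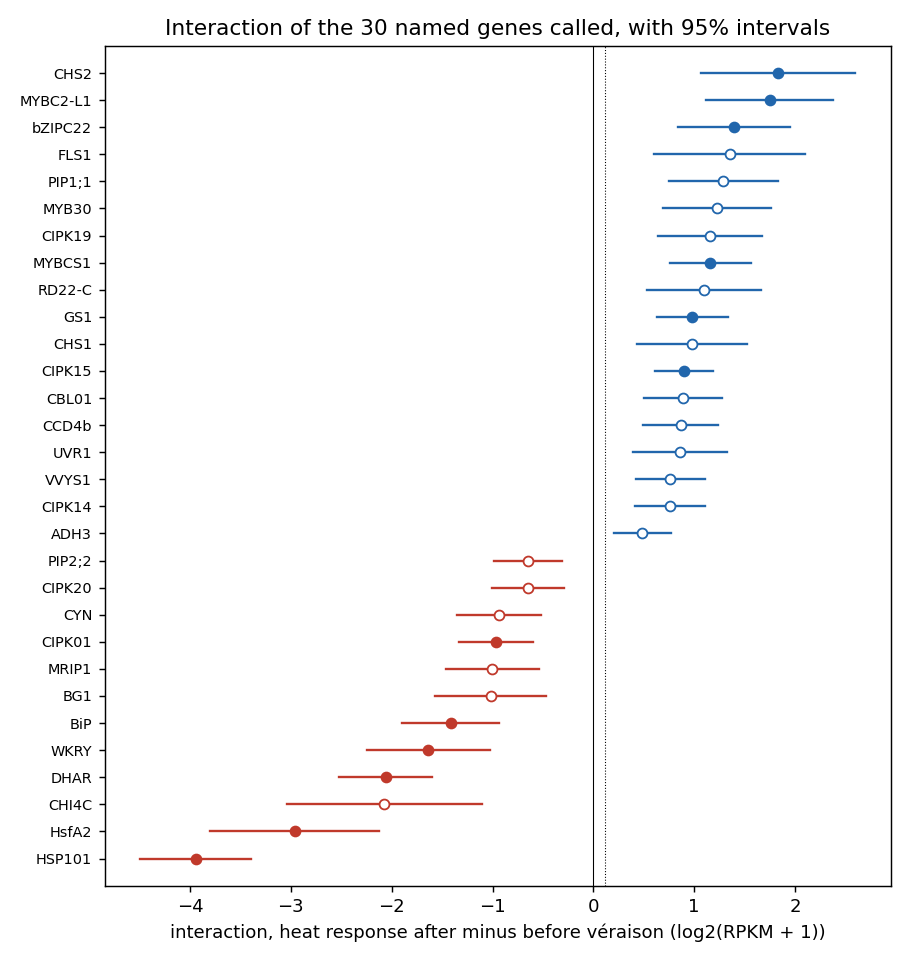
The interaction of the 30 named genes called is plotted in log2(RPKM + 1) with its 95% interval from limma, in order of size, with the median of all tested genes (0.12) as a dotted line and filled points for the 12 genes called in every setting tried. The negative genes reach to -3.94 for HSP101 and the positive ones to 1.83 for CHS2.

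In all, 30 of the 250 tested genes with a name were called (12.0%, against 7.47% of all tested genes), 18 positive and 12 negative. A name is here a symbol in the reference table that is not a placeholder, and the other 1224 called genes have none. Among genes with a name, those whose levels followed HSP101 most closely over the 8 libraries, which all comparisons share, were HsfA2 (Pearson r = 0.985), DHAR (0.957), BiP (0.927), gdhA (0.909) and WKRY (0.892). A further 36 tested genes without a name were closer to HSP101 than HsfA2 was. Of the 5, gdhA had no called interaction (-0.81, 95% interval -1.31 to -0.32, adjusted p 0.056).

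Sugar import, which sets in at véraison, gave no called interaction by limma. None of 15 tested genes of sugar transport and cleavage was called, where 7.47% of all tested genes were. None had an unadjusted p under 0.05 either, against 3579 of all 16777 tested genes. Their median was -0.06 with a range from -0.23 to 0.59. The sugar transporter gene SWEET15 had 62.3 to 87.1 RPKM before véraison and 1379 to 1680 RPKM after it, and an interaction of 0.18 (95% interval -0.22 to 0.59). The interval of each gene still allows a difference, so the stages are not shown to respond alike.

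None of 5 tested genes of photosynthesis and chlorophyll was called, where 7.47% of all tested genes were. An unadjusted p under 0.05 was seen in 2, CHLH and NDHM, both positive, against 3579 of all 16777 tested genes. The median of the 5 was 0.51, which is the value of PSBP2. PSBP2 had 4, 13, 6 and 2 reads in the post-véraison libraries, and its interaction ranged from -0.24 to 0.77 over the alternative settings. NDHM had 13, 16, 14 and 11 reads there, so a fall after véraison was poorly measured in both PSBP2 and NDHM. CHLH, a subunit of the enzyme that commits porphyrins to chlorophyll, fell before véraison from 145 and 137 to 65.1 and 76.6 RPKM and had 4.17 to 7.79 RPKM after it, with an interaction of 0.78 (95% interval 0.11 to 1.45).

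Hormone genes (7 tested, median 0.19, 1 negative at an unadjusted p under 0.05), floral and MADS factors (8, 0.23, 1 positive), CTR genes (4, 0.32, 2 positive), MLO genes (5, -0.13, 1 negative) and METK genes, which make S-adenosylmethionine (4, 0.12, 1 negative), had no called member. Of 5 tested carotenoid genes, CCD4b was called and the median was 0.27, and of 8 oxylipin and alcohol dehydrogenase genes, ADH3 was called and the median was 0.02. Beside these short lists, 7.47% of all tested genes were called, and 3579 of 16777 had an unadjusted p under 0.05. The lipoxygenase gene LOXO rose before véraison from 5.20 and 6.21 to 16.3 and 36.6 RPKM. Its interaction of -1.16 (95% interval -2.13 to -0.20) was not called. METK3 (-0.95, adjusted p 0.057) and CTR2 (1.23, adjusted p 0.051) lay just outside the threshold.

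The largest interactions of all belonged to genes without a name. LOC100266315 had 0.211 and 0 RPKM at 16 °C and 212 and 305 RPKM at 38 °C before véraison, and 3.28 and 10.5 RPKM at 16 °C and 18.5 and 10.7 RPKM at 38 °C after it. Its interaction was -6.75 ± 0.56 (SE), adjusted p 6.7e-05, followed by LOC100259921 (-6.30) and LOC100244376 (-6.26). In LOC100266315 the post-véraison libraries at 16 °C were above those before véraison.

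On the positive side the gene with the ID 100245193, not matched to the reference table, had 96.8 and 99.9 RPKM at 16 °C and 7.96 and 6.36 RPKM at 38 °C before véraison. After véraison its 4 libraries lay between 38.7 and 43.8 RPKM. The interaction was 3.51 ± 0.16 (SE), adjusted p 2.8e-06. LOC100253885 had the same form, with 143 and 134 RPKM and then 19.2 and 14.1 RPKM before véraison and 35.2 to 43.2 RPKM after it (interaction 3.18 ± 0.19).

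In a small set of genes the change was larger in size after véraison by estimate, which the interaction does not itself test. Of these 53 genes (4.23% of the called ones), 22 had a called heat response after véraison, 20 of them a rise. In 29 the change after véraison was a rise against the sign before, 19 of them with no heat response called at either stage. In 13 it was a fall against the sign before, 10 of them without such a call. LOC100263064, the second most positive gene, had 1.81 to 2.97 RPKM in the 4 pre-véraison libraries, 3.19 and 3.22 RPKM at 16 °C after véraison, and 34.2 and 46.5 RPKM at 38 °C after véraison. Only the heated post-véraison libraries stood apart.

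Its interaction was 3.45 ± 0.29 (SE), adjusted p 6.7e-05. LOC100242538, chosen after its values were seen, had 0.645 to 1.17 RPKM before véraison, 4.30 and 2.20 RPKM at 16 °C after it and 36.6 and 41.4 RPKM at 38 °C after it (interaction 3.16 ± 0.34). These genes were called in all 20 alternative settings.

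Some of the called genes stood next to each other. Among genes placed in the reference annotation, 76 of 488 negative genes (15.6%) had an adjacent gene that was also negative, where 4.32% of all placed tested genes had such a neighbour, and 60 of 572 positive genes (10.5%) had an adjacent positive gene, against 5.00%. Among interactions of 2 log2 units or more, 46 of 138 negative genes and 10 of 19 positive ones had a neighbour called the same way. Adjacent copies of a gene can share reads, and how reads with several matches were counted is not known, so neighbours are not independent of each other. The order of genes is that of the reference assembly, which may differ from the one the reads were aligned to.

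There were 14 runs of at least 3 adjacent genes all called in the same direction, 10 negative with 44 genes and 4 positive with 14. They were picked out after their values were seen, and none of their genes has a name. The longest, from LOC100242632 to LOC100252757, held 11 genes. Summed over the run, the level was 17.5 and 14.1 RPKM at 16 °C and 644 and 788 RPKM at 38 °C before véraison, and 5.43 and 6.23 RPKM and then 13.6 and 14.0 RPKM after it.

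All 11 rose before véraison, by 3.48 to 5.25 log2 units, and the interactions lay between -4.67 and -3.22. After véraison the changes were 0.04 to 0.95 log2 units, and the rise was called in 3 of the 11. After véraison none of the 11 had a heated mean above 2.20 RPKM. The recovered lengths took 10 different values between 808 and 1078 bases, which does not show that the 11 were counted from separate reads. LOC100261260 and LOC100251013, both of 1072 bases, had 83.7 and 103 RPKM against 83.2 and 102 RPKM at 38 °C before véraison. Reads matching several of the genes may enter the sum more than once, which was not tested.

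A second run of 6 genes from LOC100256023 to LOC100268056 went from 13.7 and 8.32 to 1848 and 2480 RPKM in sum before véraison and from 8.72 and 22.5 to 128 and 105 RPKM after it. A run of 4 from LOC100261497 to LOC100249533 went from 6.94 and 5.99 to 2834 and 3361 RPKM before véraison and from 1.58 and 15.2 to 97.9 and 42.4 RPKM after it. A run of 3 from LOC100265108 to LOC100242821 went from 4.66 and 3.997 to 1962 and 2320 RPKM and from 1.89 and 8.67 to 59.8 and 29.5 RPKM.

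The run of 4 from LOC100243983 to LOC100266315, which holds the gene with the largest interaction, went from 8.44 and 8.33 to 1143 and 1576 RPKM and from 12.4 and 26.0 to 110 and 74.9 RPKM. In these 4 runs post-véraison replicate 2 was the higher of the replicates at 16 °C and the lower at 38 °C. The part of these replicates in the interaction was not tested beyond leaving out each library: LOC100266315, LOC100259921 and LOC100244376 stayed called without any library.

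Among the positive runs, 2 rose after véraison. The 4 genes from LOC100257932 to LOC100245897, with LOC100263064 among them, had 9.91 and 9.52 RPKM in sum at 16 °C and 14.9 and 9.47 RPKM at 38 °C before véraison, and 17.2 and 15.2 RPKM at 16 °C and 143 and 149 RPKM at 38 °C after it. Of these 4 the rise after véraison was called in 3, and the rise before in 1, LOC100245897.

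The 3 genes from LOC100251039 to LOC100261290 had 5.69 and 5.70 RPKM at 16 °C and 20.0 and 11.3 RPKM at 38 °C before véraison, and 18.9 and 16.6 RPKM at 16 °C and 161 and 163 RPKM at 38 °C after it. All 3 rose at both stages, by 0.93 to 1.15 log2 units before and 2.57 to 3.27 after. With LOC100245897 they make up the 4 genes in which a rise was called at both stages and was larger after véraison.

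The other 2 positive runs had a called fall before véraison only. Between LOC100242533 and LOC100254519, 4 genes went in sum from 116 and 119 to 58.5 and 50.9 RPKM before véraison and from 127 and 120 to 114 and 108 RPKM after it. All 4 fell by 0.92 to 1.08 log2 units before véraison, and none had a called change after it.

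**Figure D4:**
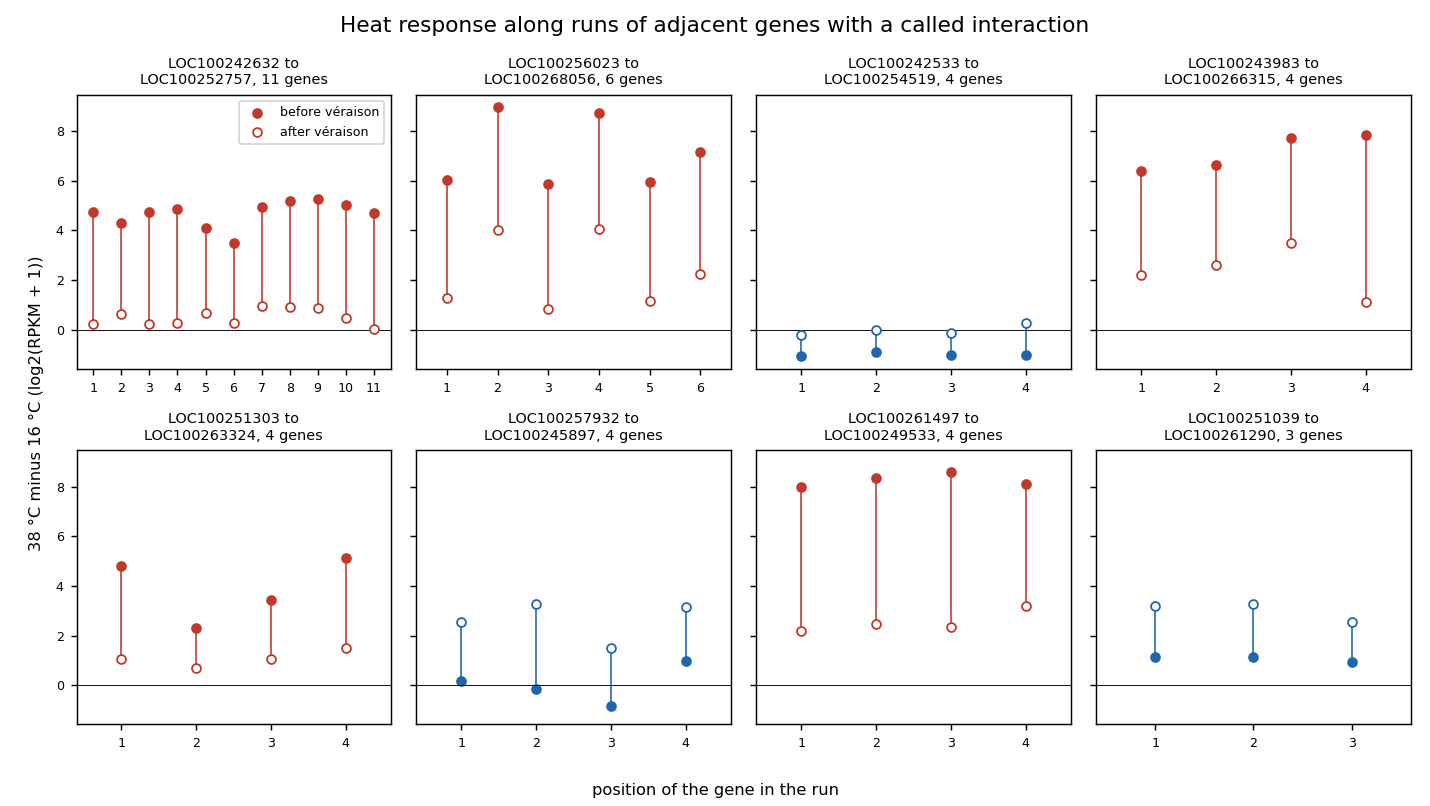
For 8 runs of adjacent genes, all 7 with at least 4 genes and the 3-gene run that rose more after véraison, the change from 16 °C to 38 °C in log2(RPKM + 1) is plotted by the position of the gene in the run, filled for before véraison and open for after. In the 5 negative runs every filled point lies above its open one, in 2 positive runs the open points lie higher with rises of 1.502 to 3.28, and in the run from LOC100242533 the filled points lie near -1.

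The starting levels of the called genes, taken as mean RPKM + 1 at 16 °C, were set beside those of all tested genes. The added 1 RPKM understates the fold between stages for low genes, and the shares without it were not computed. At 16 °C, 47.7% of the positive genes were at least 2-fold lower after véraison than before, against 30.1% of all tested genes and 13.3% of the negative ones. At least 2-fold higher after véraison were 9.21% of the positive, 22.6% of the negative and 7.08% of all tested genes. The 16 °C libraries enter both the starting level and the interaction, so the measures are not independent, and these shares are given as a description. Median-ratio scaling, which evens out the level of the typical gene between libraries, was not applied to them. Its factors were 1.29 and 1.22 for the 16 °C libraries before véraison and 0.81 and 0.83 after it. The typical gene thus had the lower RPKM after véraison, and the shares with scaling were not computed.

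On the same scale of mean RPKM + 1, the starting levels were within 2-fold of each other at the stages in 285 positive genes (43.1%) and 379 negative ones (64.0%). Genes under 1 RPKM at 16 °C after véraison, where a fall can hardly be measured, made up 14.8% of the positive, 14.5% of the negative and 14.4% of all tested genes. Genes under 1 RPKM at 16 °C before véraison made up 2.11% of the positive, 19.6% of the negative and 6.35% of all tested genes.

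**Figure D5:**
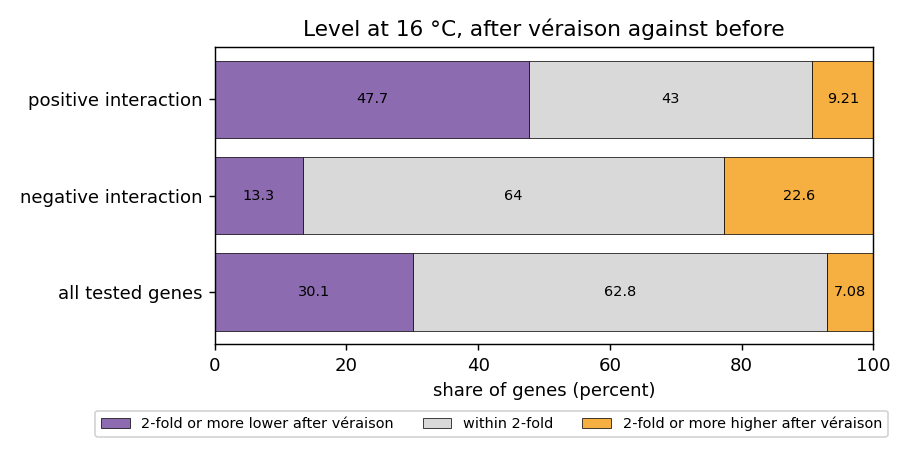
Bars give the percentage of genes by starting level, for the 662 positive, 592 negative and 16777 tested genes. The mean RPKM + 1 at 16 °C was at least 2-fold lower after véraison, within 2-fold, or at least 2-fold higher after véraison. The added 1 RPKM understates the fold for low genes. Lower starting levels after véraison were most common among positive interactions (47.7%) and higher ones among negative interactions (22.6%).

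More of the negative than of the positive interactions stayed called across settings. Leaving out each of the 8 libraries in turn, 543 of the 1254 genes stayed called in every fit, 342 of the 592 negative and 201 of the 662 positive ones, and 467 were called in all 20 settings tried (294 negative, 173 positive). Of the named genes 12 were called in all settings: HSP101, HsfA2, BiP, DHAR, WKRY and CIPK01 with a negative interaction, and CHS2, MYBC2-L1, bZIPC22, MYBCS1, CIPK15 and GS1 with a positive one. The 20 settings include a threshold of 0.01, which alone left 555 calls. They also include a filter of 5 RPKM, under which 132 of the 1254 genes were not tested. The split between positive and negative depended on the scaling between libraries. With median-ratio scaling, which brings the median interaction of all genes from 0.12 to 0.02, 416 genes were positive and 624 negative, so that 40.0% of the calls were positive in place of 52.8%, and with quantile normalization 556 were positive and 711 negative (43.9%).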

How the data were processed

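The deposited files give RPKM for each library, made by the authors from reads aligned with Bowtie 0.12.7 and TopHat 1.2.0, per the submitters' processing notes. The genome build, annotation, counting tool and strand setting, and whether reads matching several places were kept, are details not given in the sources used here, and the microarray comparison is not analysed here. Of 25771 IDs, 18647 matched the RefSeq table of assembly ASM3070453v1, used for names and gene order only; 309 had a symbol other than a placeholder.

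Tests used genes that reached 1 RPKM in 2 or more libraries, as log2(RPKM + 1) with limma 3.58.1 in R 4.3.3 (4 group means, intensity trend, two-sided, 4 residual and 6.06 prior degrees of freedom), with Benjamini-Hochberg adjustment over 16777 genes and a threshold of 0.05. A fold change on this scale understates changes of low genes. The replicates are called biological in the series text with no culture or plant named, so p-values measure the spread between these libraries.

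Named genes were the 12 most positive and 12 most negative called genes with a name and a group mean of at least 5 RPKM, up to 4 members of each gene list by adjusted p, the 3 largest each way of any name, and the 5 genes with a name most like HSP101 by Pearson r of log2(RPKM + 1); every other named called gene is also given. Product names for a further part of the rule were not used here. The contrast, the gene lists and the genes were chosen with earlier results of these data known, and the lists were drawn up from the symbols in the table.

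Whole reads were recovered from the RPKM steps for all 20845 genes above 0 in at least 3 libraries (100% within 0.002 of a whole number). They may be too small by a common divisor, and 1708 genes above 0 in 1 or 2 libraries were not recovered. limma voom on these reads called 1268 genes. Fits were tested on simulated data. Alternatives were pseudocounts of 0.1 and 5, no filter, a filter of 5 RPKM, 2 scalings, 2 prior settings, a replicate block, a threshold of 0.01, voom, and each library left out. Tables and figures used matplotlib 3.10.9, pandas 2.3.3 and numpy 2.4.6 under Python 3.11.15.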

Additional observations from a re-analysis of the deposited data

Results flagged for a closer look

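The 30 named genes below had a heat response that differed between the stages by the interaction term itself, which is what brings them here. The values are the interaction in log2(RPKM + 1), after véraison minus before. The negative ones were HSP101 at -3.94, HsfA2 at -2.96, CHI4C at -2.07, DHAR at -2.06, WKRY at -1.64, BiP at -1.42, BG1 at -1.02, MRIP1 at -1.002, CIPK01 at -0.97, CYN at -0.93, CIPK20 at -0.65 and PIP2;2 at -0.65. The positive ones were ADH3 at 0.49, CIPK14 at 0.76, VVYS1 at 0.76, UVR1 at 0.86, CCD4b at 0.86, CBL01 at 0.89, CIPK15 at 0.90, CHS1 at 0.98, GS1 at 0.98, RD22-C at 1.10, MYBCS1 at 1.16, CIPK19 at 1.16, MYB30 at 1.22, PIP1;1 at 1.29, FLS1 at 1.35, bZIPC22 at 1.39, MYBC2-L1 at 1.75 and CHS2 at 1.83. With 2 libraries a group, no library could be set against the spread of its own group.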

How the results depend on the processing

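No call of the interaction changed sign in any setting for the genes named. Positive calls fell from 662 to 437 with no filter and to 416 with median-ratio scaling. At an adjusted p under 0.01 there were 555 interaction calls (201 positive, 354 negative), 1882 heat calls before véraison and 122 after. With 1 library left out, the lone library of its group is assumed to vary like the others, and there were 696 to 1061 interaction calls (283 to 557 positive, 409 to 523 negative), 2013 to 3362 heat calls before véraison and 104 to 209 after. The count of 1254 fell by more than 1.5 times without pre-véraison 38 °C replicate 2 (711, 302 positive), post-véraison 38 °C replicate 1 (696, 283 positive) or replicate 2 (748, 326 positive). Positive calls did so as well without pre-véraison 16 °C replicate 1 (375) or 38 °C replicate 1 (431), heat calls before véraison without 38 °C replicate 2 (2013), and heat calls after it without 38 °C replicate 1 (104) or 2 (107). voom with median-ratio scaling, added after the data were seen, gave 446 positive and 678 negative calls. The replicate numbers did not pair the libraries, since replicate differences had correlations of -0.052 to 0.025 between groups, and a replicate block left 1057 calls, 529 positive and 528 negative. For the named genes, 1642 values kept their side of the threshold, 139 lost the call and 32 gained one. Depth limits genes of a few reads, such as PIP1;1 and FLS1 after véraison.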

Other observations

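In the reference annotation 33 adjacent pairs of genes were both positive, 6 of them with both interactions at 2 log2 units or more, and 50 pairs were both negative, 29 of them at that size. Of protein-coding genes 7.74% were called, against 2.97% of 269 tested pseudogenes, 5.65% of 124 long non-coding or other RNAs and 6.73% of IDs not in the reference table.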
